A study of Ovis aries with 24 samples.

Results

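The response of sheep pituitary cells to estradiol (E2) was compared between 2 preparations of the same kind of culture, sorted and unsorted cells. For each gene the E2 effect in unsorted cells was subtracted from the E2 effect in sorted cells, and the difference was tested over all 24 libraries of the series. Of 27054 features counted, 15134 had enough reads to be tested, and the E2 effect differed between preparations at 357 of them. These 357 genes, 319 of them with a gene symbol, are described here together with the genes of pituitary and estrogen biology whose E2 effect could not be told apart.

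The cells came from pituitaries of ovariectomized Western white faced ewes, dispersed and kept in culture. An adenovirus carrying green fluorescent protein under transcriptional control meant for gonadotropes was added 24 hours after dispersal, and 3 days later the cells received ethanol (vehicle) or 10 nM E2 for 6 hours. All 4 groups, of 6 libraries each, therefore share ovariectomy, dispersal and the virus, and they differ in the sort and in the treatment. The sorted cells carry the label gonadotropes and were collected by fluorescence, and the unsorted cells are anterior pituitary cells. Whether the unsorted cells also passed through a sorter, and whether libraries with the same replicate number came from the same culture, is not stated in the labels. The p-values therefore measure the spread between these libraries.

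E2 acts mainly through nuclear estrogen receptors, of which ESR1 is the form known for feedback on the pituitary. The bound receptor recruits coregulators at target genes, raising some and lowering others, and it also feeds back on its own gene. In gonadotropes, the cells that make luteinizing and follicle-stimulating hormone, E2 is known to change sensitivity to gonadotropin-releasing hormone (GnRH) and the output of both hormones, and in sheep a rise in E2 precedes the GnRH and luteinizing hormone surge.

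Depth split the series evenly. Replicates 1 to 3 of each group had totals of 4.19 to 6.19 M counts, and replicates 4 to 6 had 19.2 to 37.0 M. Gonadotrope markers summed to a median of 3979 CPM (read counts scaled to library size) in sorted vehicle and 834 CPM in unsorted vehicle libraries (8 markers). Summed fibroblast and pericyte markers and folliculostellate and stem cell markers were lower in sorted than in unsorted vehicle libraries, as given below. Markers of other hormone-producing cells were not lost in the sorted libraries. PRL, the prolactin gene of lactotropes, had a median of 121902 CPM in sorted and 68666 CPM in unsorted vehicle libraries. The cells are therefore called sorted rather than gonadotropes. In libraries of mixed cells, fewer cells of a type and less RNA per cell cannot be told apart.

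E2 changed more genes in sorted than in unsorted cells. In sorted cells 1993 genes passed the test (13.2% of those tested; 1050 rose and 943 fell), and in unsorted cells 857 did (5.66%; 463 rose and 394 fell). Both tests called 569 genes, and 567 of these moved in 1 direction in both preparations. Another 1424 genes passed in sorted cells alone, but the difference itself was called at 245 of them and not at 1179. Likewise 288 passed in unsorted cells alone and the difference was called at 31 of these. A call in 1 preparation alone was thus in most cases no called difference.

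The difference of the E2 effects, sorted minus unsorted, was called at 357 genes, 2.36% of those tested (edgeR quasi-likelihood test, adjusted p under 0.05). It lay above 0 at 251 genes (1.66%) and below 0 at 106 (0.700%), with a median size of 0.47 on the log2 scale; the median over all genes tested was 0.01. At 24 genes it was at least 2-fold above 0 and at 5 genes at least 2-fold below. The count above 0 rested on single pairs of libraries more than the total did: it was 164 without sorted replicate 3, 145 without sorted replicate 6 and 149 without the replicate 3 libraries of both preparations, a setting chosen after seeing the data. Without unsorted replicate 1 the split was 198 above and 184 below 0, so the excess above 0 (70.3% of the calls) became 51.8%.

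Grouped by the E2 tests in each preparation, 62 of the 357 genes moved in 1 direction in both and more in sorted cells. Among these 56 rose and 6 fell, with a median E2 effect of 1.03 in sorted and 0.41 in unsorted cells. Another 245 passed in sorted cells alone, where 169 rose and 76 fell. Only 11 moved in 1 direction in both and more in unsorted cells (9 rose, 2 fell), 31 passed in unsorted cells alone (12 rose, 19 fell), 2 moved in opposite directions and 6 passed neither E2 test.

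**Figure D1:**
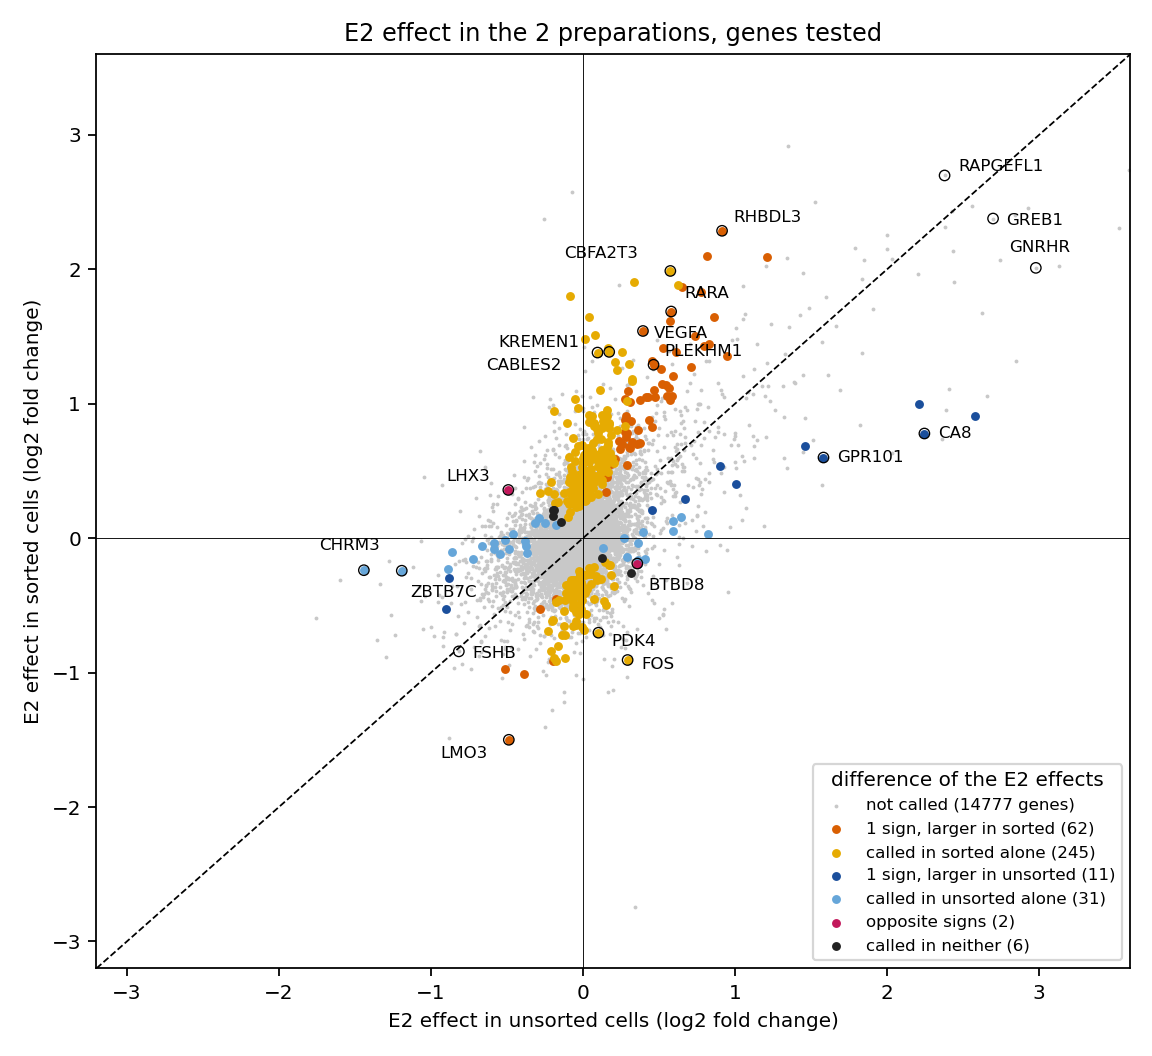
E2 effect in unsorted cells (x axis, log2 fold change) against that in sorted cells (y axis, log2 fold change); each point is 1 of the 15134 genes tested, coloured by class where the difference was called, and the dashed line marks equal effects (5 genes lie beyond the axes). The 62 genes with 1 direction and a larger effect in sorted cells lie mostly at upper centre, above the line, while RAPGEFL1, GREB1 and GNRHR, far from 0 on both axes, were not called.

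To describe single pairs, the E2 minus vehicle difference of log2 CPM was taken in each of the 12 same-numbered pairs. The 6 sorted and 6 unsorted differences did not overlap at 155 of the 357 genes, and at 233 of all genes tested (1.54%). The calls rest on the same pairs, so a higher share among them was built in. The difference kept its sign at all 354 of the called genes that could be tested in replicates 1 to 3 alone, and at all 357 in replicates 4 to 6 alone. Both sets went into the calls, so this describes the spread and is no separate test. Without the pairing of replicate numbers 4 genes were called, PLEKHM1, CABLES2, TTLL4 and KREMEN1, all of them above 0. In that fit 236 of the 15134 genes tested had an unadjusted p under 0.05, against 1890 with the pairing. The 236 are a smaller share than a threshold of 0.05 passes by chance.

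These 4 genes rose more in sorted cells; in unsorted cells PLEKHM1 passed the E2 test and the other 3 had estimates above 0 that did not. PLEKHM1 (ENSOARG00000010551), an adaptor that helps late endosomes and autophagosomes fuse with lysosomes, ranged from 24.8 to 33.8 CPM in sorted vehicle libraries (median 29.2) and from 60.9 to 78.5 CPM in sorted E2 libraries (median 70.3). In unsorted cells it ranged from 24.1 to 35.2 CPM with vehicle (median 30.2) and from 34.8 to 46.1 CPM with E2 (median 42.7). Vehicle levels were alike in both preparations, and the sorted E2 libraries stood apart from all others. PLEKHM1 rose by 1.29 (log2) in sorted and 0.46 in unsorted cells, a difference of 0.83 ± 0.08 (SE; adjusted p = 1.28e-06).

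KREMEN1 (ENSOARG00000003201), a receptor for Dickkopf proteins that dampens Wnt signalling, ranged from 3.42 to 5.63 CPM in sorted vehicle (median 4.22) and from 6.68 to 12.8 CPM in sorted E2 libraries (median 10.8). In unsorted libraries it ranged from 11.3 to 17.3 CPM with vehicle (median 15.8) and from 15.1 to 19.1 CPM with E2 (median 17.5). Here the sorted cells started lower and E2 brought them toward the unsorted level, with their highest value below every unsorted E2 library. The E2 effect was 1.39 in sorted and 0.17 in unsorted cells (difference 1.21 ± 0.12, adjusted p = 1.28e-06), and only the sorted value passed the E2 test. KREMEN1 was the 1 gene called of 36 Wnt pathway genes tested (2.78%, near the 2.36% of all genes), and the list's median difference was 0.05.

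CABLES2 (ENSOARG00000012989), a partner of cyclin-dependent kinases, ranged from 2.41 to 4.29 CPM in sorted vehicle (median 3.48) and from 6.90 to 12.1 CPM in sorted E2 libraries (median 10.3). Its unsorted ranges overlapped, 3.59 to 6.24 CPM with vehicle (median 5.84) and 4.52 to 6.70 CPM with E2 (median 5.62). All 6 sorted E2 libraries were thus above every other library. The difference was 1.28 ± 0.17 (adjusted p = 3.89e-05; E2 effect 1.38 in sorted and 0.10 in unsorted cells).

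TTLL4 (ENSOARG00000019690), an enzyme that adds glutamate chains to tubulin and other proteins, ranged from 30.5 to 37.3 CPM in sorted vehicle (median 32.3) and from 48.1 to 61.5 CPM in sorted E2 libraries (median 53.0). Unsorted libraries ranged from 40.9 to 48.4 CPM with vehicle (median 43.0) and from 41.9 to 49.2 CPM with E2 (median 46.8). E2 moved the sorted cells from below the unsorted range to mostly above it. The difference was 0.64 ± 0.08 (adjusted p = 2.07e-05). TTLL4 was the 1 gene called of 19 tubulin-modifying enzymes tested (5.26%, against 2.36% of all genes), and the list's median difference was -0.03. At each of these 4 genes the 6 sorted pair differences lay above the 6 unsorted ones (2-sided exact permutation p = 0.0022, the smallest that 6 against 6 pairs allow). Pair differences did not overlap at 1.54% of all genes tested, and the 4 genes were chosen with their response known.

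**Figure D2:**
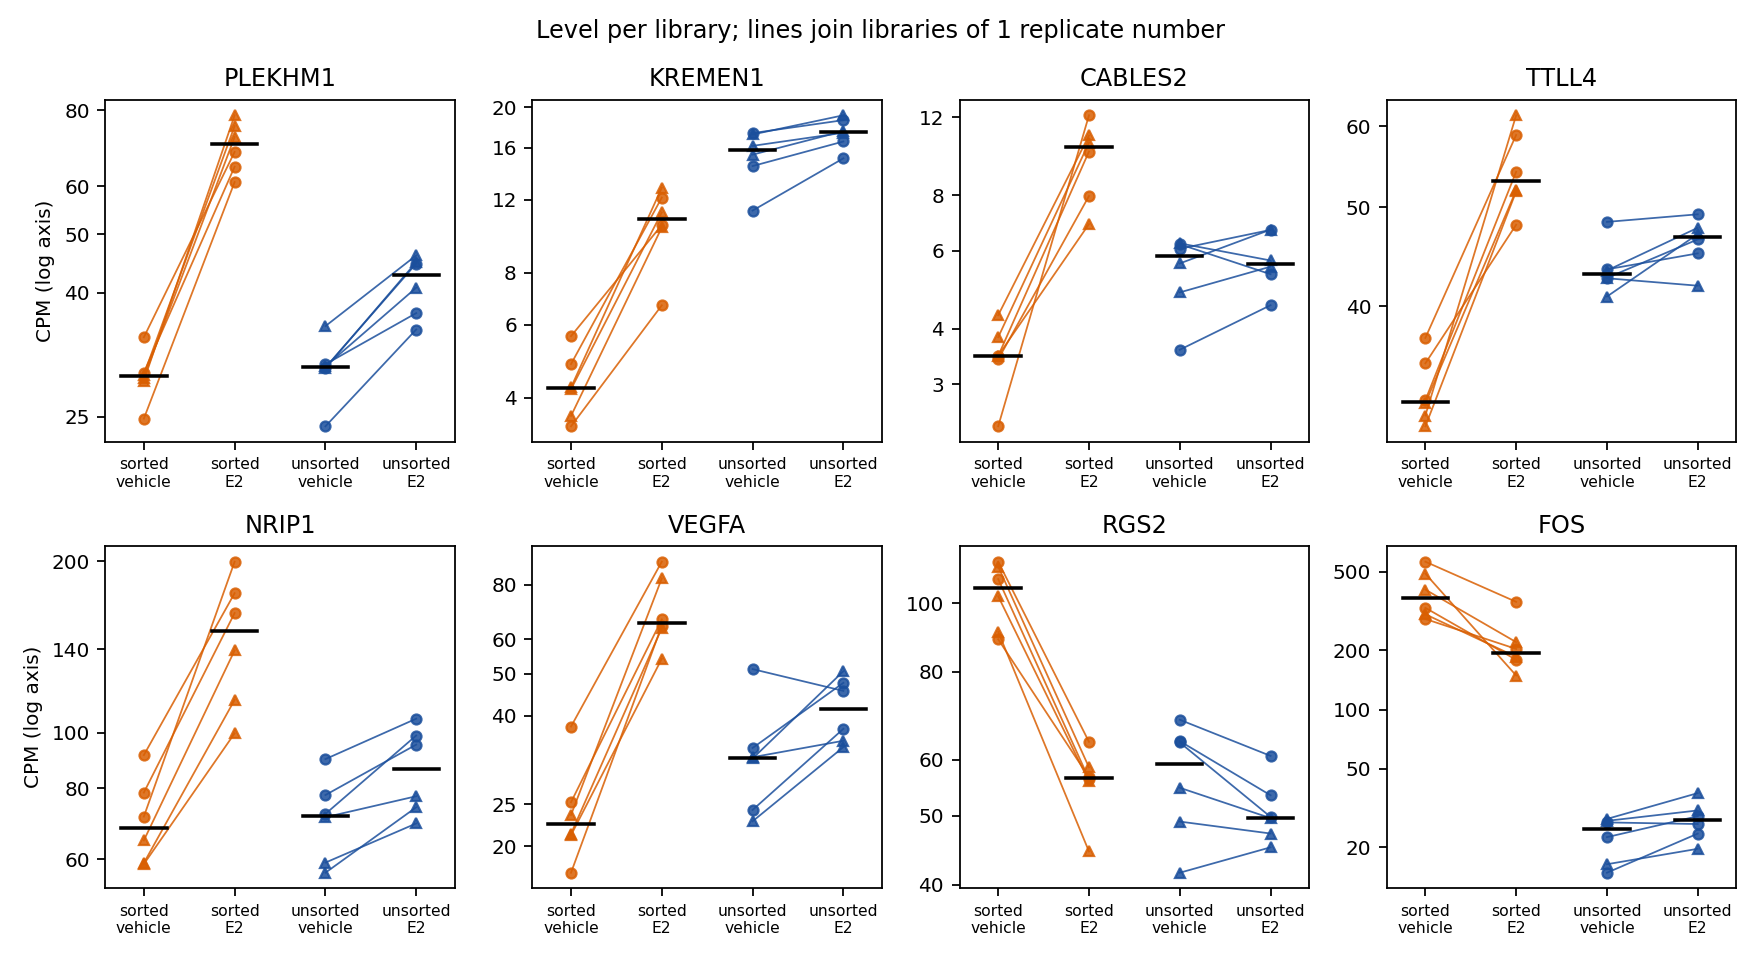
Level in CPM (log axis) of 8 genes in each library of the 4 groups; lines join libraries of 1 replicate number, circles are replicates 1 to 3, triangles replicates 4 to 6 and black bars group medians. PLEKHM1, KREMEN1, CABLES2, TTLL4, NRIP1 and VEGFA rise more steeply in sorted (orange) than in unsorted cells (blue), RGS2 falls in sorted cells, and FOS starts at a median of 367 CPM in sorted and 24.6 CPM in unsorted vehicle libraries.

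Other genes rose in both preparations, and more in sorted cells. VEGFA (ENSOARG00000008334), the main angiogenic growth factor, ranged from 17.4 to 37.7 CPM in sorted vehicle (median 22.5) and from 54.1 to 90.5 CPM in sorted E2 libraries (median 65.5). With vehicle it ranged from 22.8 to 51.2 CPM (median 32.0) and with E2 from 33.9 to 50.6 CPM (median 41.5) in unsorted libraries. The unsorted ranges overlapped and the sorted ones did not; VEGFA rose by 1.54 in sorted and 0.39 in unsorted cells (difference 1.15 ± 0.14, adjusted p = 0.000266). RHBDL3, of the rhomboid family of membrane proteases, rose by 2.29 and 0.91 (difference 1.37 ± 0.20). NOD2, an intracellular sensor of bacterial peptidoglycan, rose by 1.83 and 0.78 (difference 1.05 ± 0.14). FNIP2, a folliculin partner, rose by 1.61 and 0.57 (difference 1.04 ± 0.17), and ZDHHC18, a palmitoyltransferase, by 1.42 and 0.52 (difference 0.89 ± 0.11).

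A further set rose in sorted cells and did not pass the E2 test in unsorted cells. RAD51D, a homologous recombination protein, had a median of 7.95 CPM in sorted vehicle and 22.1 CPM in sorted E2 libraries, against 13.1 and 16.5 CPM in unsorted ones (difference 1.13 ± 0.12, adjusted p = 5.35e-06). SYNJ2, a phosphoinositide phosphatase, had a difference of 1.25 ± 0.16, and PLD1, a phospholipase that makes phosphatidic acid, one of 0.99 ± 0.15. GRK5, a kinase that desensitizes G protein-coupled receptors, had E2 effects of 0.85 in sorted and 0.07 in unsorted cells. CAMK1G, a calcium and calmodulin-dependent kinase, had 0.85 and 0.17. The pair differences of all 5 genes were higher in all 6 sorted pairs than in any unsorted pair (1.54% of all genes tested had pair differences that did not overlap). These 5 genes were chosen with their difference known.

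TOP2A, a DNA topoisomerase of dividing cells, ranged from 17.1 to 32.5 CPM in sorted vehicle (median 20.4) and from 33.7 to 48.6 CPM in sorted E2 libraries (median 39.7). In unsorted cells it was higher and its ranges overlapped, 50.9 to 84.8 CPM with vehicle (median 75.1) and 55.9 to 89.7 CPM with E2 (median 79.4). The E2 effect was 0.91 in sorted and 0.06 in unsorted cells (difference 0.85 ± 0.09, adjusted p = 5.67e-06). Of 26 cell cycle genes tested it was the 1 called (3.85%, near the 2.36% of all genes), and their median difference was 0.06. LASP1, an actin-binding scaffold protein, likewise stood lower in sorted vehicle (median 242 CPM) than in unsorted vehicle libraries (876 CPM) and passed the E2 test in sorted cells alone, where it rose by 0.48 (difference 0.49 ± 0.06). EPHB3, an ephrin receptor, had medians of 3.26 and 5.03 CPM in sorted vehicle and E2 libraries and 14.5 and 13.4 CPM in unsorted ones (difference 1.00 ± 0.16). These 3 genes and KREMEN1 show larger sorted effects from a lower vehicle level; over all 251 calls above 0, 145 (57.8%) had a lower mean vehicle level in sorted libraries, against 49.1% of all genes tested. The vehicle libraries also enter the E2 effects, so this is a description.

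Some genes of the estrogen response itself were among those with the larger rise in sorted cells. NRIP1 (ENSOARG00000001166), a corepressor that binds estrogen receptors and a known estrogen target, ranged from 58.9 to 91.4 CPM in sorted vehicle (median 68.0) and from 99.8 to 199.5 CPM in sorted E2 libraries (median 151). Unsorted libraries ranged from 56.8 to 89.9 CPM with vehicle (median 71.6) and from 69.4 to 106 CPM with E2 (median 86.4). Starting levels were alike, and the sorted ranges with and without E2 did not overlap while the unsorted ones did. NRIP1 rose by 1.04 and 0.28 (difference 0.76 ± 0.09, adjusted p = 2.61e-05).

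RARA, a retinoic acid receptor, had medians of 30.0 and 98.5 CPM in sorted vehicle and E2 libraries and 39.8 and 59.3 CPM in unsorted ones. It rose by 1.69 and 0.58 (difference 1.11 ± 0.18, adjusted p = 0.00646). RASD1, a Ras-related protein first known as a steroid-induced gene, had medians of 18.9 and 42.4 CPM against 10.8 and 16.3 CPM, a difference of 0.86 ± 0.11. CELSR2, an adhesion receptor, had a difference of 0.43 ± 0.10, which was no longer called without unsorted replicate 6 (0.37, adjusted p = 0.0769). NRIP1, RARA, RASD1 and CELSR2 were the calls among 19 estrogen targets from other tissues, all above 0 (1.66% of all genes tested). Of the 19 estimates 12 were above 0, and the list's median difference was 0.28 against 0.01 for all genes tested. Members of this list and of those below were chosen with earlier results of these data known, so nothing is read from the counts.

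NCOR1, a nuclear receptor corepressor, rose by 0.35 in sorted and 0.15 in unsorted cells. Its difference of 0.20 ± 0.05 was just past the threshold (adjusted p = 0.0471) and was lost in 10 of the 12 fits that left out 1 pair, all but those without sorted replicate 4 or unsorted replicate 5, with adjusted p up to 0.161. The 15 steroid receptors and coregulators tested had a median difference of 0.15.

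LIM proteins and their partners, which form the complexes around LIM-homeobox factors of the pituitary, were called in both directions, 3 above and 2 below 0 of 15 tested, against 1.66% and 0.700% of all genes tested. LDB1, the scaffold of these complexes, had medians of 119.6 and 259 CPM in sorted vehicle and E2 libraries and 89.8 and 127 CPM in unsorted ones. Its E2 ranges were clear of the vehicle ranges in both preparations, and it rose by 1.14 and 0.55 (difference 0.59 ± 0.09, adjusted p = 0.000615). CBFA2T3, a corepressor, was low, with medians of 2.69 and 11.2 CPM in sorted and 1.59 and 2.74 CPM in unsorted libraries, and had a difference of 1.41 ± 0.26. LMO3, a LIM-only protein, went the other way, from a median of 12.5 to 4.55 CPM in sorted and from 6.84 to 4.56 CPM in unsorted libraries. It fell in both preparations, by 0.49 on the log2 scale in unsorted cells and by more in sorted cells (difference -1.01 ± 0.15, adjusted p = 0.000177), and LMO4 had a smaller difference of -0.36 ± 0.07.

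The smallest p over all genes tested belonged to a fall. PDK4 (ENSOARG00000003501), a kinase that shuts off pyruvate dehydrogenase, ranged from 175 to 601 CPM in sorted vehicle (median 281) and from 111 to 337 CPM in sorted E2 libraries (median 173). Unsorted libraries ranged from 114 to 409 CPM with vehicle (median 253) and from 115 to 519 CPM with E2 (median 268). The group ranges overlapped in both preparations, and the pairs did not: all 6 sorted pairs fell, by 0.50 to 0.83 on the log2 scale, and the unsorted pairs lay between -0.02 and 0.34. The difference was -0.80 ± 0.07 (adjusted p = 8.65e-08).

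RGS2 (ENSOARG00000009653), which speeds the shut-off of Gq signalling and so of signals such as that of the GnRH receptor, ranged from 88.9 to 114 CPM in sorted vehicle (median 105) and from 44.5 to 63.6 CPM in sorted E2 libraries (median 56.6). In unsorted libraries it ranged from 41.6 to 68.4 CPM with vehicle (median 59.2) and from 45.2 to 60.8 CPM with E2 (median 49.8). E2 thus brought sorted cells down to the unsorted range. RGS2 fell by 0.89 in sorted cells, the unsorted estimate of -0.12 did not pass, and the difference was -0.78 ± 0.08 (adjusted p = 1.28e-06).

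Feedback regulators of the ERK kinase cascade were called below 0 at 4 of 14 members (0.700% of all genes tested). Of the 14 estimates 6 were above 0, and the median difference was -0.22. SPRY1, a Sprouty inhibitor of receptor tyrosine kinase signals, had medians of 32.6 and 16.1 CPM in sorted and 44.9 and 37.8 CPM in unsorted libraries. It fell by 0.91 and 0.20 on the log2 scale (difference -0.71 ± 0.09, adjusted p = 2.07e-05). SPRY2 had a difference of -0.63 ± 0.12 and SPRED1, a related inhibitor, one of -0.40 ± 0.09; both passed the E2 test in sorted cells alone. ETV1, a transcription factor induced by ERK, had -0.33 ± 0.09 and was lost in 7 of the 12 fits without 1 pair, all but those without sorted replicate 1, 2 or 3 or unsorted replicate 3 or 4 (adjusted p up to 0.115).

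Immediate-early genes, switched on within minutes by growth factors, calcium or stress, were called below 0 at 6 of 23 members and above 0 at none (all genes tested: 0.700% below and 1.66% above); 3 of the 23 estimates were above 0 and the median difference was -0.36. FOS (ENSOARG00000001783), a component of the AP-1 transcription factor, ranged from 288 to 563 CPM in sorted vehicle (median 367) and from 149 to 352 CPM in sorted E2 libraries (median 194). In unsorted libraries it ranged from 14.9 to 27.9 CPM with vehicle (median 24.6) and from 19.7 to 37.7 CPM with E2 (median 27.5). Every sorted library stood far above every unsorted library whatever the treatment, so the fall took place at levels that unsorted cells did not reach. FOS fell by 0.91 in sorted cells, the unsorted estimate of 0.29 did not pass, and the difference was -1.20 ± 0.21 (adjusted p = 0.0130).

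JUN, the partner of FOS in AP-1, differed less between the preparations at the start, with a vehicle median of 138 CPM in sorted cells against 84.1 CPM. Its difference was -0.53 ± 0.09 (adjusted p = 0.00206), and JUNB had -0.60 ± 0.12. NR4A2, an orphan nuclear receptor, rose by 0.36 in unsorted cells and had an estimate of -0.16 in sorted cells (difference -0.53 ± 0.11). DUSP1, a phosphatase of MAP kinases, had -0.39 ± 0.09 and was not called without unsorted replicate 6 (-0.37, adjusted p = 0.0557). EGR1, the factor through which GnRH drives LHB, had a difference of -0.62 ± 0.16 that did not pass (adjusted p = 0.0679) although its vehicle medians were 251 and 11.5 CPM; without sorted replicate 5 or 6 it passed (adjusted p = 0.00584 and 0.00495). Whether handling of the sorted cells had a part in these genes was not tested.

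Several transcription regulators fell in sorted cells and had unsorted estimates that did not pass the E2 test, from -0.12 at ARID5B to 0.01 at ZNF608. ZNF608, a zinc finger protein, had medians of 48.4 and 30.2 CPM in sorted and 32.6 and 32.7 CPM in unsorted libraries (difference -0.69 ± 0.08, adjusted p = 1.90e-05). NFIL3, a basic leucine zipper repressor, had medians of 71.3 and 44.3 CPM against 38.7 and 38.1 CPM (difference -0.65 ± 0.09). ARID5B, a chromatin-binding protein, had a difference of -0.60 ± 0.08 and TLE4, a Groucho-type corepressor, one of -0.54 ± 0.08. ARRDC3, an arrestin-like protein, had a difference of -0.53 ± 0.07. SEMA6D, a semaphorin, had E2 estimates of -0.90 in sorted and -0.19 in unsorted cells (difference -0.70 ± 0.12). At all 6 genes every sorted pair fell and no unsorted pair fell as far (1.54% of all genes tested had pair differences that did not overlap). These genes, too, were chosen with their difference known. Of the 106 calls below 0, 18 (17.0%) had a lower mean vehicle level in sorted than in unsorted libraries, against 49.1% of all genes tested. The vehicle libraries also enter the E2 effects, so here too this is a description.

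Thyrotrope genes were called below 0 at 3 of 5 members (0.700% of all genes tested): TSHB, TRHR and DIO2. TSHB, the beta subunit of thyroid-stimulating hormone, ranged from 221 to 1159 CPM in sorted vehicle (median 529) and from 176 to 952 CPM in sorted E2 libraries (median 405). In unsorted libraries it ranged from 102 to 331 CPM with vehicle (median 242) and from 112 to 377 CPM with E2 (median 268). Ranges overlapped widely, but all 6 sorted pairs fell, by 0.09 to 0.49, and 5 of 6 unsorted pairs lay above 0. TSHB fell by 0.31 in sorted cells and the difference was -0.43 ± 0.07 (adjusted p = 0.000288).

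TRHR, the receptor for thyrotropin-releasing hormone on thyrotropes and lactotropes, fell by 0.97 in sorted and 0.52 in unsorted cells. Its difference of -0.46 ± 0.11 was lost without sorted replicate 4, unsorted replicate 4 or unsorted replicate 5 (adjusted p = 0.0627, 0.0536 and 0.146). DIO2, the deiodinase that makes active thyroid hormone, instead rose in both, by 0.40 and 1.01 (difference -0.61 ± 0.12), so the 3 genes did not share a direction of response. The 5 thyrotrope markers summed to a median of 1023 CPM in sorted vehicle (range 693 to 1647) and 734 CPM in sorted E2 libraries (426 to 1322). In unsorted libraries the medians of the sum were 501 and 525 CPM. The sums include TSHB, TRHR and DIO2, so they are no separate measure of thyrotrope share. The part of thyrotrope share in the result was not tested.

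**Figure D3:**
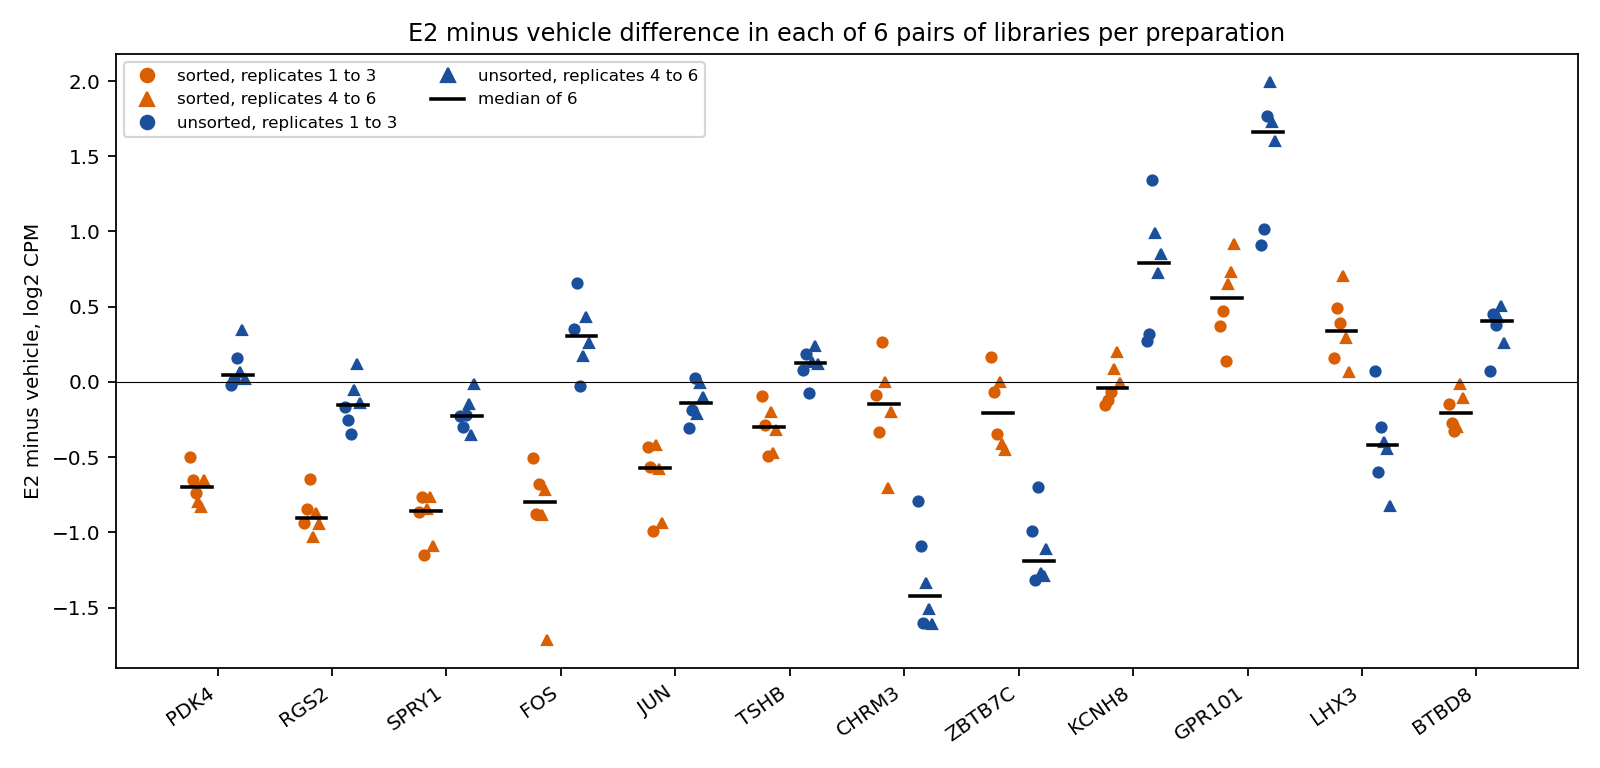
E2 minus vehicle difference of log2 CPM in each of the 6 same-numbered pairs of sorted (orange) and unsorted libraries (blue) for 12 genes; circles are replicates 1 to 3, triangles replicates 4 to 6 and black bars medians. PDK4, RGS2, SPRY1, FOS, JUN and TSHB lie below 0 in all 6 sorted pairs, CHRM3 and ZBTB7C below 0 in all 6 unsorted pairs, and LHX3 and BTBD8 on opposite sides of 0 in the 2 preparations apart from 1 unsorted pair of LHX3.

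A smaller group of genes responded more in unsorted cells. CHRM3 (ENSOARG00000017805), a muscarinic acetylcholine receptor, ranged from 8.11 to 22.3 CPM in sorted vehicle (median 16.1) and from 7.63 to 19.4 CPM in sorted E2 libraries (median 13.5). In unsorted libraries it ranged from 6.98 to 15.4 CPM with vehicle (median 11.5) and from 2.51 to 5.10 CPM with E2 (median 4.58). The unsorted ranges were separate and the sorted ones largely the same. CHRM3 fell by 1.44 in unsorted cells, the sorted estimate of -0.24 did not pass, and the difference was 1.20 ± 0.15 (adjusted p = 2.07e-05).

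ZBTB7C, a zinc finger repressor, had the same pattern, with unsorted medians of 9.17 and 4.26 CPM and sorted medians of 11.1 and 9.70 CPM (difference 0.95 ± 0.14). RIMBP2, a presynaptic scaffold protein, fell by 0.59 in unsorted cells and had a sorted estimate of -0.04 (difference 0.55 ± 0.10). In the other direction KCNH8, a voltage-gated potassium channel, rose by 0.82 in unsorted cells and had a sorted estimate of 0.03 (difference -0.79 ± 0.13, adjusted p = 0.000490). TLN2, a talin that ties integrins to actin, rose by 0.40 in unsorted cells with a sorted estimate of 0.04. CADPS, a priming factor for dense-core vesicle release, rose by 0.27 with a sorted estimate of 0.00, and RNF128, a ubiquitin ligase, by 0.29 with a sorted estimate of -0.14. At all 7 genes with CHRM3 the sorted and unsorted pair differences did not overlap (1.54% of all genes tested). They were chosen with their difference known.

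Genes raised in both preparations and more in unsorted cells included GPR101, FBP1 and CA8. GPR101, an orphan receptor linked to growth hormone excess, had medians of 41.5 and 53.9 CPM in sorted vehicle and E2 libraries and 22.4 and 59.5 CPM in unsorted ones. It started lower in unsorted cells and ended at about the same level; its rise was 0.60 against 1.58 (difference -0.98 ± 0.19, adjusted p = 0.0138). FBP1, an enzyme of gluconeogenesis, had medians of 33.1 and 54.0 CPM against 14.6 and 43.5 CPM (difference -0.77 ± 0.15). CA8, a carbonic anhydrase-related protein, had medians of 4.71 and 7.81 CPM against 1.10 and 4.49 CPM, and its difference of -1.47 ± 0.30 was not called without unsorted replicate 5 (-1.07, adjusted p = 0.0504). In all 3 genes the unsorted vehicle median was the lowest of the 4 group medians.

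LHX3 and BTBD8 were the genes with called E2 effects of opposite sign. LHX3 (ENSOARG00000004750), a LIM-homeobox factor needed for the pituitary to form, ranged from 25.3 to 64.5 CPM in sorted vehicle (median 42.5) and from 28.3 to 92.2 CPM in sorted E2 libraries (median 49.9). Unsorted libraries ranged from 12.6 to 37.6 CPM with vehicle (median 21.4) and from 10.6 to 27.5 CPM with E2 (median 14.1). It was higher in all 6 sorted pairs and lower in 5 of 6 unsorted pairs. LHX3 rose by 0.36 in sorted cells and fell by 0.49 in unsorted cells (difference 0.85 ± 0.12, adjusted p = 0.000288).

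BTBD8 (ENSOARG00000016117), a protein with BTB domains, had medians of 180.5 and 158 CPM in sorted vehicle and E2 libraries and 75.5 and 99.7 CPM in unsorted ones. All 6 sorted pairs fell and all 6 unsorted pairs rose; its E2 effects were -0.19 and 0.36 (difference -0.55 ± 0.07, adjusted p = 3.58e-05). Both genes stayed called in all 12 fits without 1 pair. Among the 6 calls with no E2 call in either preparation, HR, a corepressor of nuclear receptors, had estimates of 0.17 and -0.20, and BDNF, a neurotrophin, -0.26 and 0.31. Each lost its call in 3 of the 12 fits, HR without sorted replicate 3, sorted replicate 6 or unsorted replicate 6, and BDNF without sorted replicate 5, sorted replicate 6 or unsorted replicate 6 (adjusted p up to 0.0662 and 0.0830).

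The genes RAPGEFL1, GREB1 and GNRHR, with E2 effects above 2 on the log2 scale in both preparations, and the hormone genes of gonadotropes were not among the calls. RAPGEFL1, a guanine nucleotide exchange factor-like protein, had medians of 11.1 and 79.4 CPM in sorted vehicle and E2 libraries and 5.52 and 28.4 CPM in unsorted ones. It rose by 2.70 and 2.38, and the difference of 0.32 had a 95% interval from -0.43 to 1.07 and ran from 0.16 (without sorted replicate 5) to 0.49 (without sorted replicate 1) when 1 pair was left out. GREB1, a coactivator of ESR1 and a standard estrogen target, rose by 2.38 and 2.70 (difference -0.32, interval -1.55 to 0.91), and the difference ran from -0.72 without unsorted replicate 1 to -0.0031 without unsorted replicate 4. Its vehicle levels ranged from 4.99 to 49.2 CPM in sorted libraries, and the interval holds differences of the size called at PLEKHM1 (0.83) and FOS (-1.20).

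GNRHR (ENSOARG00000007526), the GnRH receptor and a marker of gonadotropes, ranged from 3.59 to 9.93 CPM in sorted vehicle (median 5.07) and from 6.68 to 40.2 CPM in sorted E2 libraries (median 19.6). In unsorted libraries it ranged from 0.452 to 1.04 CPM with vehicle (median 0.639) and from 2.23 to 11.6 CPM with E2 (median 3.27). It rose by 2.01 and 2.98. The difference of -0.97 ± 0.31 did not pass (adjusted p = 0.142, interval -1.62 to -0.31), and did without sorted replicate 5 (-1.24, adjusted p = 0.00290) and with no filter on low counts (adjusted p = 0.000134). Without unsorted replicate 5 it shrank to -0.59 (adjusted p = 0.632).

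FSHB (ENSOARG00000015425), the beta subunit of follicle-stimulating hormone, ranged from 74.1 to 215 CPM in sorted vehicle (median 153) and from 48.6 to 125 CPM in sorted E2 libraries (median 79.4). Unsorted medians were 29.6 CPM with vehicle and 17.5 CPM with E2. Despite the different levels it fell by nearly the same amount, 0.84 in sorted and 0.82 in unsorted cells on the log2 scale, and the difference of -0.03 had an interval from -0.21 to 0.16. LHB, the beta subunit of luteinizing hormone, and CGA, the shared alpha subunit, passed no E2 test in either preparation, with differences of -0.05 (interval -0.36 to 0.27) and -0.14. NR5A1, a transcription factor of gonadotropes, had a difference of -0.08 (interval -0.35 to 0.20). ESR1 fell by 0.45 and 0.68 (difference 0.23, adjusted p = 0.305).

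The 8 gonadotrope markers tested had a median difference of -0.11. Of the other hormone genes, PRL had E2 estimates of -0.09 and 0.13, neither past the test, and a difference of -0.22 (adjusted p = 0.0897) that passed without sorted replicate 3 or 4 or unsorted replicate 1 or 3 (adjusted p = 0.0383, 0.0183, 0.0422 and 0.0492). POMC, the precursor of adrenocorticotropin, had a difference of -0.13 (interval -0.51 to 0.25). POU1F1, the factor of lactotropes, somatotropes and thyrotropes, fell by 0.77 and 0.52, with a difference of -0.25 (adjusted p = 0.108) that passed without sorted replicate 1 or 2 (adjusted p = 0.0433 and 0.0369).

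**Figure D4:**
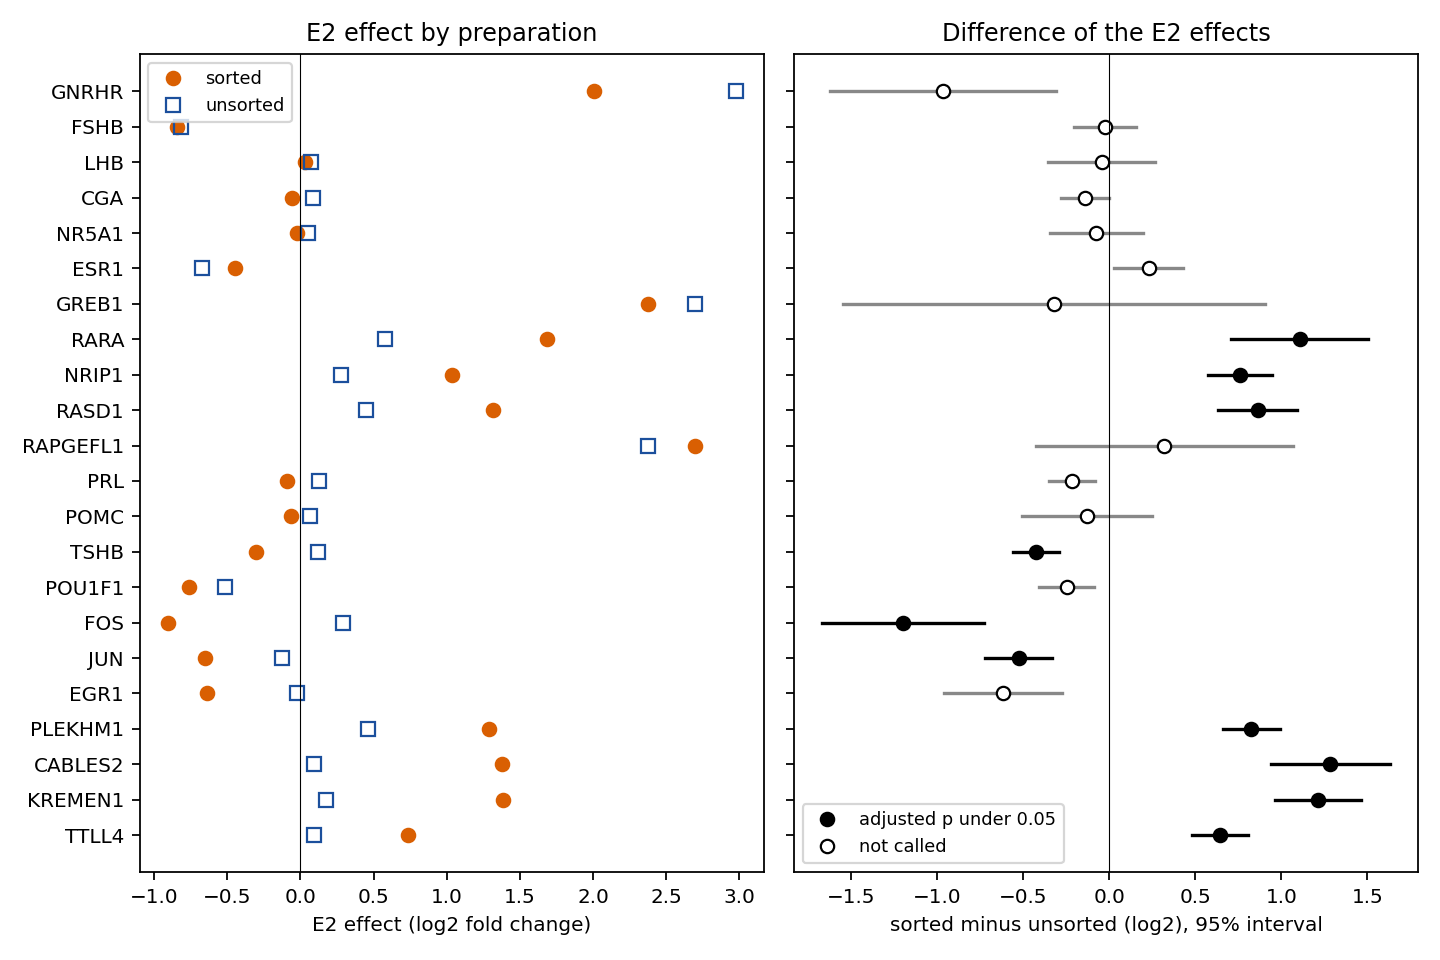
E2 effect of 22 genes in sorted (filled orange circles) and unsorted cells (open blue squares) at left, as log2 values. The right panel gives the difference of the effects with its 95% interval, also as log2 values. Filled points at right passed the test of the difference, while fill at left marks the preparation and no test. GREB1 has the widest interval, from -1.55 to 0.91, and FSHB has an effect of -0.84 and -0.82 in the 2 preparations.

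In the other lists, too, the counts stand beside the 1.66% of all genes called above 0 and 0.700% called below 0. As with the lists above, nothing is read from them, since the members were chosen with this contrast known. In the activin, inhibin and BMP pathway, which controls FSHB, 2 of 35 members were called above 0 and 3 below. SMAD3, a transducer of activin, rose by 0.64 in sorted cells with an unsorted estimate of -0.05 (difference 0.70 ± 0.13, adjusted p = 0.00207). The activin receptor ACVR1B had a difference of 0.41 ± 0.10, the activin antagonist FST one of -0.51 ± 0.13, and SMAD1, a transducer of BMP signals, one of -0.30 ± 0.08. The last 3 were each lost in 3 of the 12 fits without 1 pair: ACVR1B without sorted replicate 3 or 6 or unsorted replicate 6, FST without sorted replicate 4 or 5 or unsorted replicate 6, and SMAD1 without sorted replicate 5 or unsorted replicate 5 or 6 (adjusted p up to 0.0989, 0.115 and 0.0802).

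Of 36 GnRH signalling genes 1 was called above 0 and 4 below, and the 4 were RGS2 and the immediate-early genes FOS, JUN and DUSP1 described above. Axon guidance genes had 4 calls above 0 and 1 below of 58, among them SEMA4D, a semaphorin that rose by 0.72 in sorted cells (difference 0.55 ± 0.08). Of 22 Ras and Rap regulators 2 were called above 0, RASD1 and RAPGEF1, an exchange factor for Rap1 (0.47 ± 0.08). In the secretory granule list 2 of 34 were called below 0, CADPS and SYT4, a synaptotagmin that fell by 0.18 in sorted cells (difference -0.32 ± 0.07). IRF1, an interferon-induced factor, was the single call of 24 interferon-stimulated genes (-0.41 ± 0.09) and was lost without unsorted replicate 6 (-0.34, adjusted p = 0.0708).

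No member was called (adjusted p under 0.05) in the lists of folliculostellate and stem cell (10 tested), endothelial (10), fibroblast and pericyte (11), immune (9), somatotrope (7) and corticotrope markers (4), nor in those of inflammatory genes (13), heat shock genes (8), cholesterol synthesis (18), ribosomal proteins (7), mitochondrially encoded genes (11) and G1 cyclins and their inhibitors (11). Their median differences lay between -0.09 and 0.14. Summed levels of non-endocrine markers differed between preparations. Fibroblast and pericyte markers summed to a median of 1397 CPM in sorted and 7597 CPM in unsorted vehicle libraries, and folliculostellate and stem cell markers to 3022 and 7439 CPM. With E2 the 4 sums were 1379, 6856, 3045 and 7108 CPM, and their part in the called differences was not tested.

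**Figure D5:**
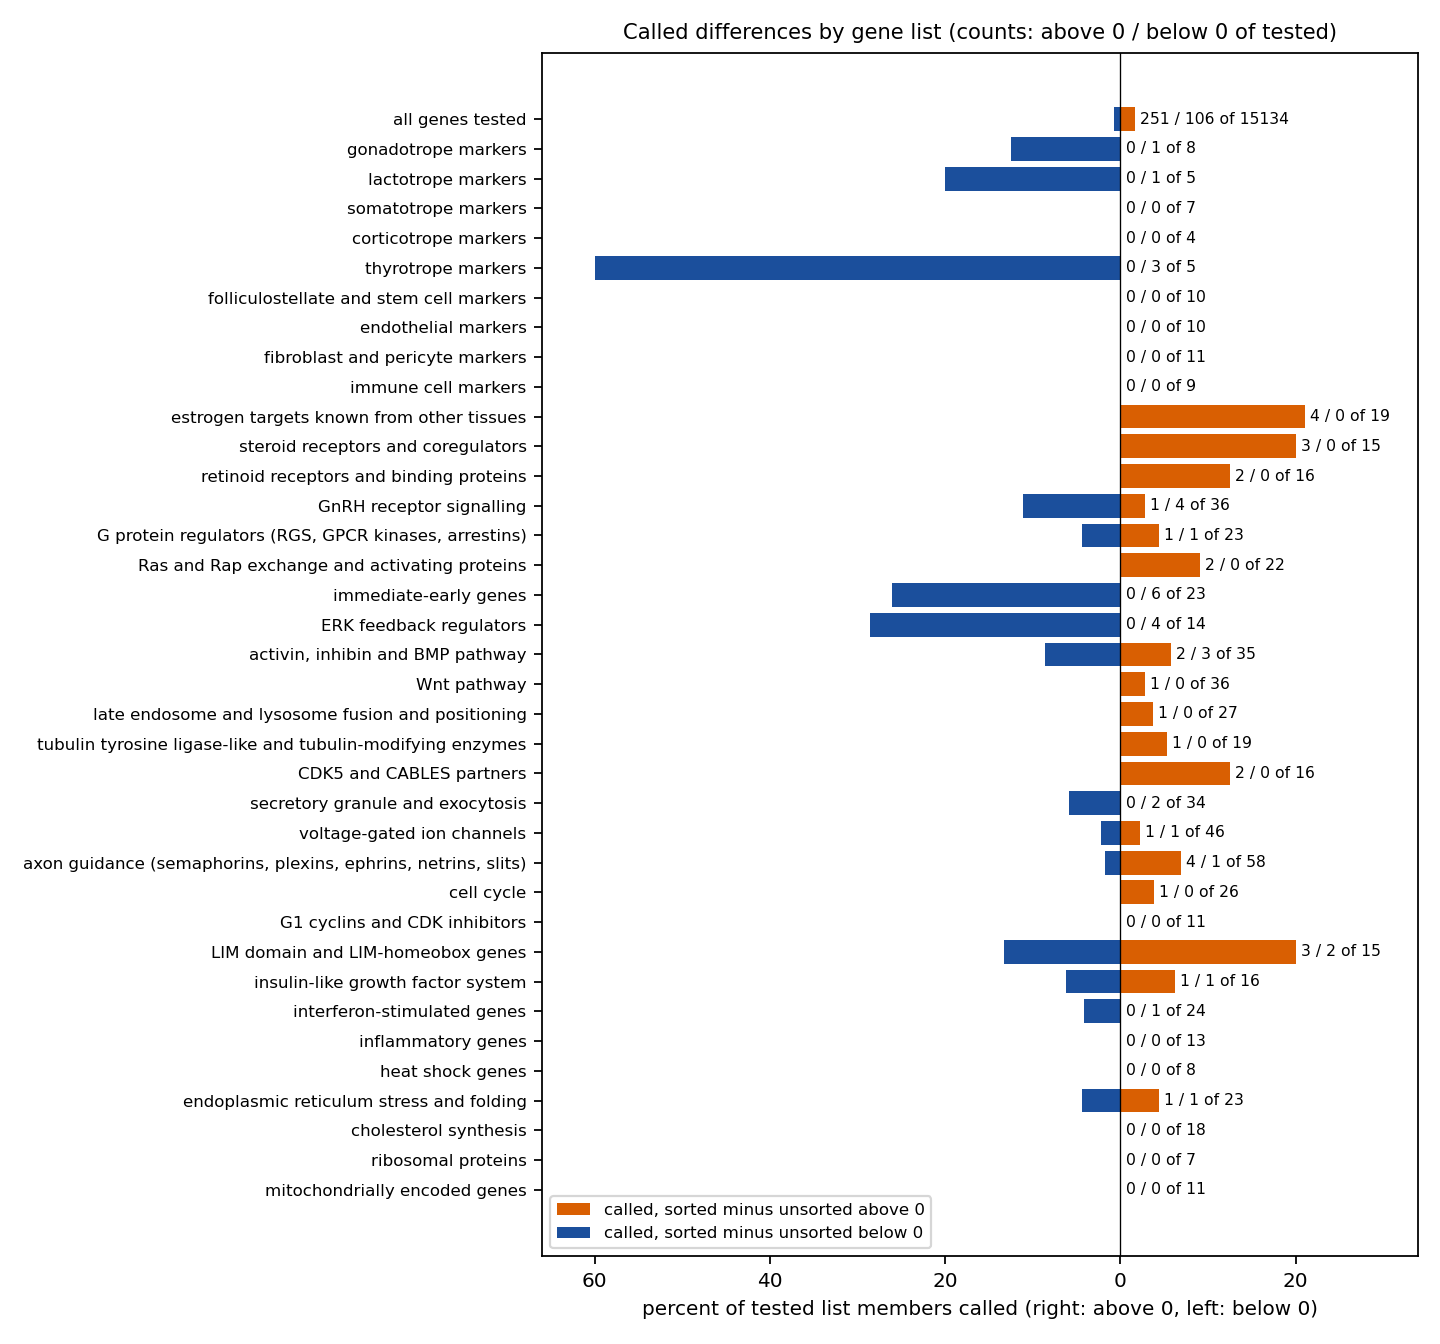
Percent of the tested members of each gene list at which the difference of the E2 effects was called, above 0 to the right and below 0 to the left, with all genes tested at the top; the counts beside each bar are above 0, below 0 and tested. Immediate-early genes (6 of 23), ERK feedback regulators (4 of 14) and thyrotrope markers (3 of 5) were called below 0 alone, and estrogen targets (4 of 19) above 0 alone. All lists were chosen with earlier results of these data known.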

How the data were processed

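The authors deposited raw read counts per gene, unnormalized, from featureCounts 1.5.1 per the submitters' processing notes. Not given in the sources used here: aligner, genome build, strand setting. Genes that overlap on opposite strands may share reads, and coordinates are left out. The sorted and unsorted E2 tables (27054 features each) were joined by gene identifier.

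Genes passing filterByExpr (15134) entered a model in edgeR 4.0.16 (R 4.3.3) with TMM scaling, robust quasi-likelihood estimation, 12 blocks (replicate number within preparation) and an E2 term per preparation (10 residual degrees of freedom). The 2-sided test of sorted minus unsorted was adjusted over all genes (Benjamini-Hochberg, 0.05). Standard errors are the estimate over the square root of F; intervals use the t distribution with the moderated degrees of freedom. CPM uses TMM-scaled library sizes; pair differences use log2 CPM with a prior count of 2. Fits were also run on simulated counts that gave all genes the same dispersion and took replicate numbers as pairs. That run cannot test the pairing.

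No label says what equal replicate numbers share. In libraries centred by group, same-numbered vehicle and E2 libraries of a preparation correlated at r = 0.57 to 0.86, in all 12 pairs above any other number (at most 0.51), so the numbers were taken as pairs.

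Named genes are a selection from a rule: among calls with a symbol and at least 5 CPM in the highest group, the 15 largest and 10 smallest p in each direction and up to 6 per class; 22 fixed genes; and up to 4 members of each of 36 lists with the smallest p. Members, lists and rule were chosen with earlier results of these data known. Alternatives (scaling, filter, DESeq2 1.42.0, limma 3.58.1 voom, blocking, replicate sets, left-out pairs) are in the closing section. Some genes are not reported here.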

Additional observations from a re-analysis of the deposited data

Results flagged for a closer look

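The test of the difference between the E2 effects of the 2 preparations was passed by 357 genes. The genes that moved in opposite directions were LHX3, with a sorted minus unsorted difference of 0.85 (log2), and BTBD8, with -0.55.

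In 10 of the 172 sets of 6 pair differences examined for the named genes, near the share chance gives, 1 pair stood apart from the other 5 (Dixon's test at the 95% level, by which chance marks about 1 set in 20). The E2 minus vehicle differences of log2 CPM in these pairs were 0.41 for KREMEN1 in unsorted replicate 2, -0.54 for EPHB3 in unsorted replicate 1, -0.19 for RAPGEF1 in unsorted replicate 3, 0.24 for ARID5B and -0.47 for POMC in unsorted replicate 2, and 0.30 for PRL in unsorted replicate 5. In sorted cells they were 0.58 for CAMK1G and 0.46 for NCOR1 in replicate 5, 0.25 for LASP1 in replicate 1 and -1.71 for FOS in replicate 6. Without that pair, the differences of the called genes among these were still called, except that of NCOR1.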

How the results depend on the processing

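Each setting is given as calls of the difference (above and below 0), then E2 calls in sorted and unsorted cells, then calls with opposite E2 signs; the main values are 357 (251 and 106), 1993, 857 and 2. The pairing mattered most: with no replicate block the counts were 4 (4 and 0), 235, 73 and 0. All 357 genes then kept their sign, and 161 of them had an unadjusted p under 0.05, against 236 of all 15134 genes tested. With 1 block shared by both preparations they were 70 (50 and 20), 892, 345 and 1. Replicates 1 to 3 alone gave 22 (13 and 9), 489, 111 and 0. Replicates 4 to 6 alone gave 162 (116 and 46), 564 in unsorted cells and 0 of opposite sign. With an adjusted p under 0.01 the counts were 179 (134 and 45), 1323 and 516. With no filter on low counts 592 were called, 258 of them below 0, and 7 had opposite signs, as in limma-voom (7). Without replicate 3 of both preparations, chosen after seeing the data, 149 lay above 0 and 4 had opposite signs.

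Leaving out each pair in turn gave 257 to 382 calls of the difference, 145 to 261 above 0, 75 to 184 below 0, 1464 to 2265 E2 calls in sorted cells, 565 to 922 in unsorted cells and 2 to 4 of opposite sign. The low counts in unsorted cells came without replicate 4 (569) or 6 (565) there. Other scalings, a stricter filter, non-robust estimation, DESeq2 and separate fits per preparation kept these counts within 1.5 times where they give them. No named gene reversed its sign past the test in any setting. The spread between pairs limits what could be detected: the intervals of GREB1 and RAPGEFL1 hold differences of the size called elsewhere.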
